A study of Mus musculus with 12 samples.

Results

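Enolase is the glycolytic enzyme that turns 2-phosphoglycerate into phosphoenolpyruvate, and in the mouse its main forms are encoded by Eno1, Eno2 and Eno3, to which the mouse genome adds Eno1b, a retrogene copy of Eno1. These 4 genes were found by symbol among the 43432 genes of a count table from pancreatic tumours, and all 4 had enough reads to be tested (of 15449 tested genes). The tumours were grown from CR705, a pancreatic cancer line of the mouse. The labels call 6 samples WT and 6 AHRKO, a knockout of Ahr, the gene of the aryl hydrocarbon receptor. Messenger RNA was selected with poly-T beads and sequenced on an Illumina instrument. The labels give no agent, host strain or age for any sample, and they do not say how many AHRKO clones were used or whether replicates were separate animals, so p-values measure only the spread between these samples. Eno1b and its ratios to Eno1 were chosen by their counts in WT and AHRKO, with the low values in AHRKO already known, so their values are given as a description without a test. Eno1, Eno2 and Eno3 entered by their family name, and their AHRKO against WT difference is tested below.

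Enolase works as a dimer. The alpha subunit (Eno1) is made in nearly all tissues, the gamma subunit (Eno2, neuron-specific enolase) is typical of neurons and neuroendocrine cells, and the beta subunit (Eno3) is typical of striated muscle. Eno1 and Eno2 belong to the glycolytic genes that hypoxia-inducible factors turn on, and Eno1 is commonly high in tumours. A retrogene arises when a messenger RNA is copied back into the genome, which leaves a copy without the parent's introns.

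The copies can hardly be told apart by sequence. Over the 1302 coding bases (434 codons), Eno1 and Eno1b differed at 8 positions, an identity of 99.4%, and all 8 altered codons still encode the same amino acid, so both genes encode the same protein. The longest run without a difference was 725 bases. Eno2 was 75.1% and Eno3 76.7% identical to Eno1 over the same length, with 74 and 71 codons for another amino acid. The main Eno1 transcript has 12 exons over 2027 bases, whereas the longest Eno1b transcript has 2 exons over 1791 bases. The whole Eno1b coding sequence lies in its second exon. Of all 100-base windows of the Eno1b transcript, 26.6% occurred in no transcript of another gene, against 41.0% for Eno1 and 100.0% for Eno2 and for Eno3. With 50-base windows these shares were 15.5% for Eno1b and 27.8% for Eno1, and with 150-base windows 39.0% and 51.0%. The sources used here do not give the read length or the treatment of reads that fit several places, so levels of Eno1 and Eno1b rest on an unknown part of their length, and those of Eno2 and Eno3 on nearly all of it.

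**Figure D1:**
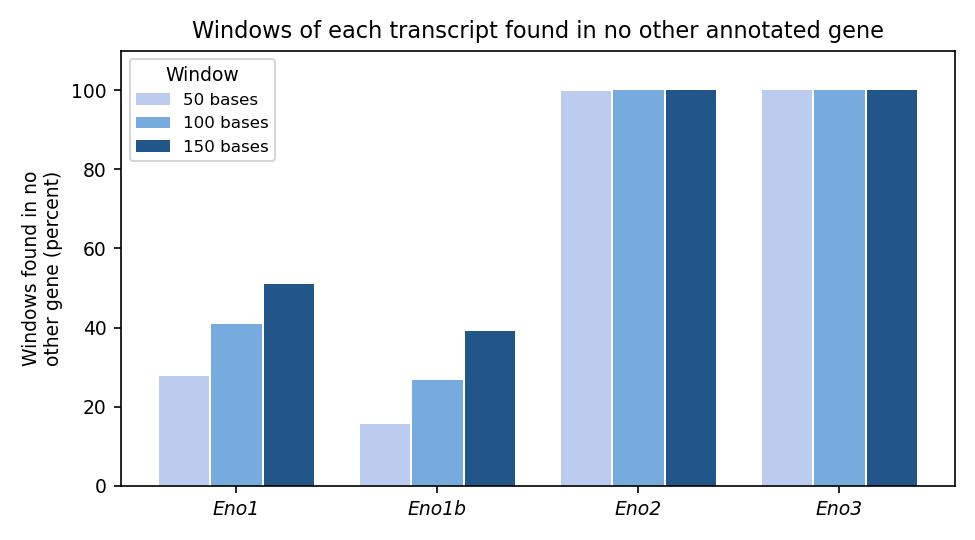
Share of windows of 50, 100 or 150 bases (bars, percent) along the longest coding transcript of each enolase gene that occur in no annotated transcript of another gene. Eno1b has the lowest shares, from 15.5% to 39.0%, and Eno2 and Eno3 lie near 100%.

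The promoters of the ordinary enolase genes are shown because the receptor that the knockout label names is a transcription factor whose known DNA element has the core GCGTG, while hypoxia-inducible factors also bind the core ACGTG. The 250 bases before the most upstream RefSeq start of each gene (GRCm38.p6, the mm10 assembly) were chr4:150236458-150236707 on the plus strand for Eno1, chr6:124769674-124769923 on the minus strand for Eno2 and chr11:70656926-70657175 on the plus strand for Eno3. They follow from 5′ to 3′ along the gene, with capitals marking GCGTG or ACGTG on either strand (GCGTG reads CACGC on the other strand).
Eno1: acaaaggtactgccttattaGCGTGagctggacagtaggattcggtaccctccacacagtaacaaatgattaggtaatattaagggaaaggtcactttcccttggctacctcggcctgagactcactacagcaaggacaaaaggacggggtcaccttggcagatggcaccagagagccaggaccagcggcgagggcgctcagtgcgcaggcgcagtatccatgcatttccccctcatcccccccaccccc
Eno2: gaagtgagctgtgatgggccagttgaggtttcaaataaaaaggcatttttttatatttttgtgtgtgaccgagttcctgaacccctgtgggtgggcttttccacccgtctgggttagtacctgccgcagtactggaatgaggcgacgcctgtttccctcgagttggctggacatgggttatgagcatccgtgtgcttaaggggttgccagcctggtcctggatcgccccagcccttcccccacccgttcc
Eno3: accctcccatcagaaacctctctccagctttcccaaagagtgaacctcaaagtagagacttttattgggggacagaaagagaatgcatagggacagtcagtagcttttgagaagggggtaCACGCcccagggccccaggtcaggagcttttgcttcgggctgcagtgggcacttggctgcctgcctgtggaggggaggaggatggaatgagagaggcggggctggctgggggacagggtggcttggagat
GCGTG was found 1 time for Eno1, 1 time for Eno3 and 0 times for Eno2, and ACGTG in none of the 3 windows. RefSeq lists 3 starts for Eno1, and the windows before the other two, which lie inside an exon of another Eno1 transcript, each held GCGTG 2 times and ACGTG 0 times. Of 32851 promoter windows of this length, 28.2% held GCGTG and 16.6% held ACGTG at least 1 time. A match of these letters is a description of the sequence only.

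Library totals ran from 14772343 to 35881469 counts, and levels are given as CPM, the usual scaling of a gene's counts to its library's total. Ahr itself lay between 101 and 125 CPM in WT and between 62.5 and 143 CPM in AHRKO, with a log2 fold change of -0.13 ± 0.17 (SE), so its transcript level does not check the labels. The deposited counts do not show which part of Ahr was deleted. AHRKO replicate 1 stood apart from the other libraries in its cell type markers. Ductal and epithelial markers, led by Krt8 and Krt18, had a summed level over 12 genes of 3932 to 5563 CPM in WT, 3582 to 5103 CPM in AHRKO replicates 2 to 6 and 773 CPM in AHRKO replicate 1. That library had the highest sums of fibroblast markers, at 59888 CPM, and of endothelial markers, at 1518 CPM. For fibroblast markers WT sums were 16747 to 41147 CPM and those of AHRKO replicates 2 to 6 were 9610 to 22771 CPM. For endothelial markers they were 240 to 558 and 291 to 446 CPM. Of 10 listed acinar markers of normal pancreas, 3 (Cela2a, Amy2a5 and Ptf1a) had 0 counts in all 12 libraries. Cela1, the only acinar marker with enough reads to be tested, was at 14.5 to 27.5 CPM in WT and 7.54 to 49.4 CPM in AHRKO. Of 14 tested leukocyte markers 13 were higher in AHRKO (12 without replicate 1), with a summed level of 15 genes of 699 to 1382 CPM in WT and 1029 to 7117 CPM in AHRKO, where replicate 1 had the highest sum. The part of these shifts in the enolase values was not tested, and in bulk tumour RNA fewer cells of a type cannot be told apart from less RNA per cell. Of 15449 tested genes, 29.5% were called in either direction, 15.9% as higher and 13.6% as lower in AHRKO (edgeR's quasi-likelihood test, adjusted p under 0.05).

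Eno1b was abundant in every WT library and nearly absent from every AHRKO library. Eno1b (ENSMUSG00000059040) lies on chromosome 18, 48045335 to 48048412, plus strand (mm10). Its lowest, median and highest levels were 86.4, 104 and 134 CPM in WT and 0.653, 1.43 and 1.92 CPM in AHRKO. All 6 AHRKO libraries were far below the lowest WT library, in a table where 13.4% of tested genes had no overlap between the groups. In raw reads the levels were 1740 to 4559 counts per WT library and 11 to 28 counts per AHRKO library. The group means were 109 ± 18.6 and 1.40 ± 0.456 CPM (SD, n = 6 each), a 78.3-fold lower level in AHRKO. The fitted log2 fold change (AHRKO over WT) was -6.29 ± 0.23 (SE), which chose the gene and is given without a test. Only 3 of the 15449 tested genes had a lower fitted value. The nearest genes with a larger fall were 8430419K02Rik at -6.80 and Glp1r at -6.75, and the nearest with a smaller fall were Cym at -6.22 and Ifne at -6.01.

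**Figure D2:**
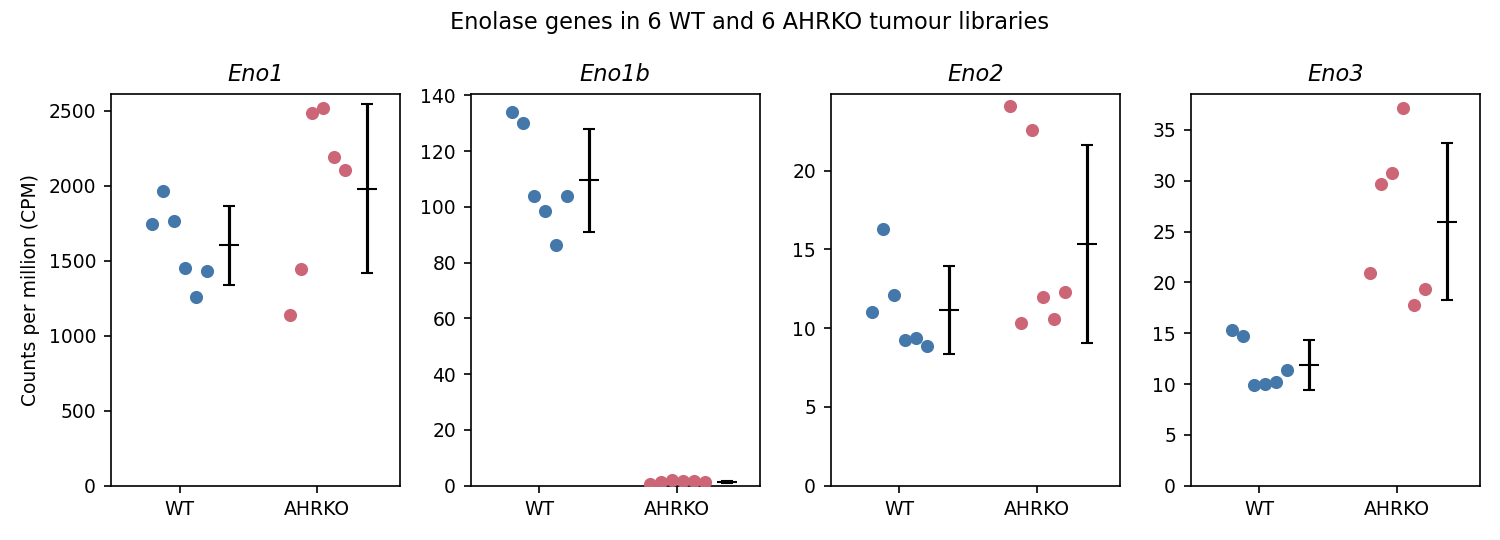
Levels of the 4 enolase genes (CPM, vertical axes from 0 with a separate scale for each gene) in 6 WT and 6 AHRKO libraries, with points for libraries in replicate order and black marks for the mean ± SD. Eno1b is at most 1.92 CPM in AHRKO, Eno3 is higher in all 6 AHRKO libraries than in any WT library, and Eno1 and Eno2 overlap between the groups.

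The balance between the copies was steadier than their levels. Eno1b made up 6.40% ± 0.526 of the summed Eno1 and Eno1b counts in WT and 0.0704% ± 0.0126 in AHRKO (mean ± SD, n = 6 each). The lowest and highest WT shares were 5.56% in replicate 3 (95% Wilson interval 5.34 to 5.79) and 7.12% in replicate 1 (6.88 to 7.36). The lowest and highest AHRKO shares were 0.0572% in replicate 1 (0.0319 to 0.102) and 0.0872% in replicate 2 (0.0595 to 0.128). These intervals cover counting error only, since reads without molecular identifiers are not independent molecules. Eno1 had 14.7 ± 1.34 counts for each Eno1b count in WT and 1459 ± 260 in AHRKO. Across WT libraries the coefficient of variation was 17.0% for the Eno1b level, 16.5% for the Eno1 level and 8.22% for the share of Eno1b. In AHRKO it was 32.6% for Eno1b, 28.5% for Eno1 and 18.0% for the share, with as few as 11 counts of Eno1b behind a value. AHRKO replicate 1 had the lowest level of both copies in its group.

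**Figure D3:**
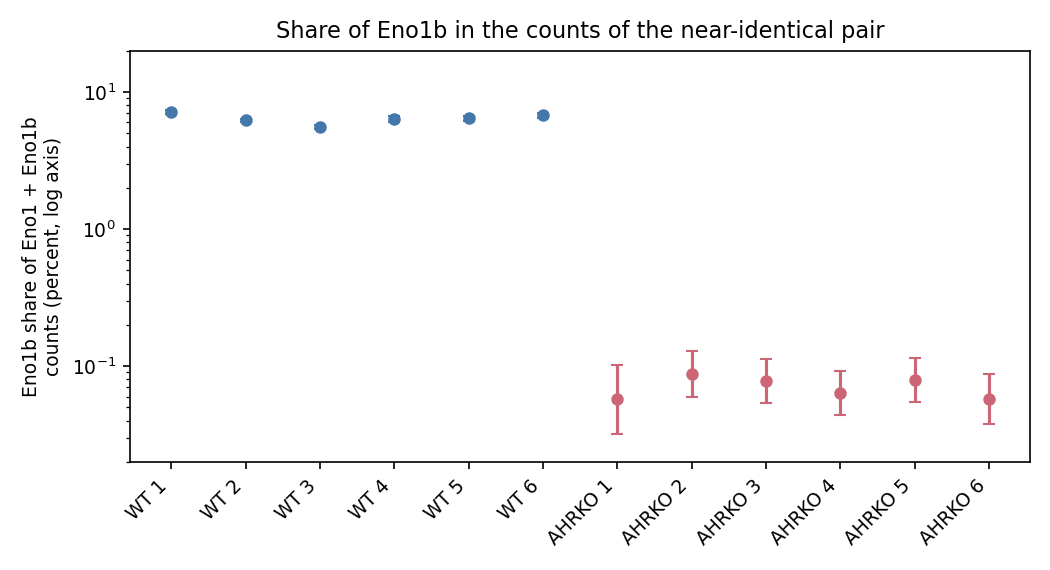
Share of Eno1b in the counts of Eno1 and Eno1b together (percent, log axis) in each library, with 95% Wilson intervals that cover counting error only. WT libraries lie between 5.56% and 7.12% and AHRKO libraries between 0.0572% and 0.0872%.

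A processed pseudogene with much of the same sequence was lower too, though far less so. Gm4735 (ENSMUSG00000064193, chromosome 2, 80837141 to 80838442, plus strand) shared 1150 of the 1742 windows of 50 bases in the Eno1b transcript. It was chosen after its values were seen, and its reads cannot be told apart from those of the copies over much of its length, so it is described without a test. Its level was 8.64 to 14.4 CPM in WT and 3.32 to 6.24 CPM in AHRKO, without overlap. Among all tested genes, 13.4% had no overlap between the groups, in either direction. The means of Gm4735 were 11.8 ± 2.03 and 5.26 ± 1.09 CPM. The fitted log2 fold change was -1.16 ± 0.18 (SE). Gm4735 stood at 10.8% ± 0.886 of the Eno1b counts in WT and at 395% ± 68.2 of the far smaller Eno1b counts in AHRKO. Relative to Eno1 it stood at 0.736% ± 0.0633 of the Eno1 counts in WT and 0.276% ± 0.0581 in AHRKO. In the annotation, 7 processed pseudogenes share at least 10 such windows with Eno1b, of which 4 have a row in the table. The other three of these, Gm33707, Gm16103 and Gm13685, had at most 3 counts in any library.

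**Figure D4:**
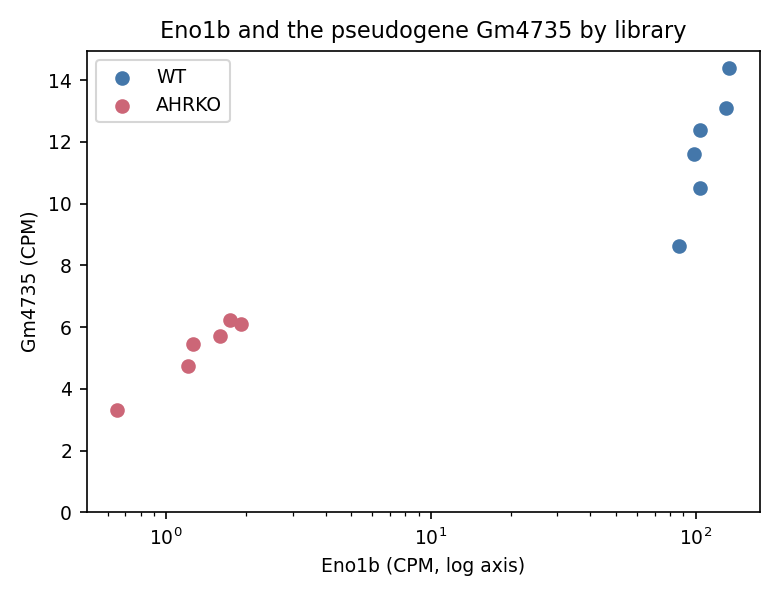
Level of the pseudogene Gm4735 (CPM) against that of Eno1b (CPM, log axis), with 1 point per library. AHRKO libraries lie at 3.32 to 6.24 CPM of Gm4735 and WT libraries at 8.64 to 14.4 CPM.

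Eno1, the parent gene (ENSMUSG00000063524, chromosome 4, 150236721 to 150248879, plus strand), did not change beyond the spread between libraries. Its lowest, median and highest levels were 1258, 1597 and 1965 CPM in WT and 1141, 2148 and 2517 CPM in AHRKO. In AHRKO, replicates 3, 4, 5 and 6 lay above every WT library, while replicate 1 lay below every WT library and replicate 2, at 1441 CPM, lay among them. The means were 1602 ± 264 and 1979 ± 565 CPM (SD, n = 6 each). The log2 fold change was 0.31 ± 0.20 (SE) with a 95% interval of -0.12 to 0.73 and an adjusted p of 0.264 (edgeR's quasi-likelihood test). It passed with limma-voom and quality weights for each sample, at 0.42 with an adjusted p of 0.0451. Over the settings that kept Eno1 apart from Eno1b, the adjusted p ran from 0.0451 (limma-voom) to 0.456 (edgeR's quasi-likelihood test with a replicate block). Without AHRKO replicate 1, the library with few ductal markers, edgeR's adjusted p was 0.0547 at a log2 fold change of 0.42.

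The sum of the pair did not show the low counts of Eno1b. The summed level of Eno1 and Eno1b was 1711 ± 280 CPM in WT, from 1345 to 2095, and 1981 ± 565 CPM in AHRKO, from 1142 to 2519 (n = 6 each). All WT sums lay inside the AHRKO range. With both copies counted as 1 gene, the log2 fold change was 0.21. It is given without a test, because the sum holds the Eno1b counts that chose the gene. Eno1b was 6.40% of the pair's counts in WT, so its low counts could move the sum only a little. Adding the counts of the processed pseudogenes as well, an alternative chosen after the data were seen, gave 0.20. Because both genes encode the same protein, this sum stands for the counted transcripts of the alpha subunit. Reads that fit several places may be missing from it, since their treatment is not known.

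Eno3, the muscle form, rose in AHRKO tumours. Eno3 (ENSMUSG00000060600, chromosome 11, 70657202 to 70662513, plus strand) had a lowest, median and highest level of 9.88, 10.8 and 15.3 CPM in WT and 17.8, 25.3 and 37.2 CPM in AHRKO. All 6 AHRKO libraries were above all 6 WT libraries, with replicate 4 the highest. No overlap between the groups, in either direction, was seen for 13.4% of tested genes. The means of 11.9 ± 2.45 and 26 ± 7.74 CPM differed 2.18-fold. The log2 fold change was 1.12 ± 0.20 (SE), with a 95% interval of 0.68 to 1.56 and an adjusted p of 0.00218 (edgeR's quasi-likelihood test), in a table in which 15.9% of tested genes were called higher. Leaving out any 1 library gave values from 1.00 to 1.21, and the adjusted p ran from 2.43e-06 to 0.0200 over all settings.

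Markers of skeletal muscle were spread differently over the libraries. The summed level of 15 muscle markers was 43.8 to 68.9 CPM in WT and 37.7 to 604 CPM in AHRKO. The sum of 604 CPM was that of AHRKO replicate 2, where the actin gene Acta1 reached 176 CPM and the myosin gene Myh1 107 CPM. The other five AHRKO libraries had sums of at most 64.0 CPM. In AHRKO replicate 4, where Eno3 was highest, the muscle sum was 49.2 CPM, within the WT range. The troponin gene Tnni2 alone held 30.3 CPM of that sum, and it was at 23.3 to 38.7 CPM in WT. The part of muscle tissue in the Eno3 values was not tested. Without AHRKO replicate 2 the log2 fold change of Eno3 was 1.08 (adjusted p = 0.00601, edgeR's quasi-likelihood test). Of 6 tested muscle markers 1 was called higher, beside 15.9% of all tested genes, and 5 had an unadjusted p under 0.05. The called marker was Mylpf, a myosin light chain gene, at 2.49 ± 0.82 (SE) with an adjusted p of 0.0369 by the same test. Without AHRKO replicate 2 Mylpf was at 0.77 and no muscle marker was called (0 of 6, with 0 at an unadjusted p under 0.05). The call of Mylpf was also lost without any 1 of the WT libraries, with limma-voom (0 of 6 called) and with the replicate block. DESeq2 called 2 of 6 muscle markers but gave no adjusted p for Mylpf, which was not among those called.

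Eno2, the neuronal form, did not pass the test. Eno2 (ENSMUSG00000004267, chromosome 6, 124760053 to 124769673, minus strand) had a lowest, median and highest level of 8.85, 10.2 and 16.3 CPM in WT and 10.3, 12.1 and 24.1 CPM in AHRKO. AHRKO replicates 1 and 3 were highest, at 24.1 and 22.6 CPM, and the other four AHRKO libraries lay within the WT range. The log2 fold change was 0.45 ± 0.25 (SE), with a 95% interval of -0.09 to 1.00 and an adjusted p of 0.194 (edgeR's quasi-likelihood test). Without AHRKO replicate 1 the log2 fold change was 0.27, and without AHRKO replicate 3 it was 0.31. Among 10 tested neuronal and neuroendocrine markers, 5 were lower and 1 was higher in AHRKO, beside 13.6% lower and 15.9% higher among all tested genes. Snap25, a synaptic vesicle fusion gene, was lower by a log2 value of -4.08 ± 0.54, the light neurofilament gene Nefl was at -3.64 ± 0.55, and Map2, a microtubule-associated protein gene, was at 0.57 ± 0.15 (SE). Their adjusted p were 0.000425, 0.000867 and 0.0141 (edgeR's quasi-likelihood test). The summed level of the 18 listed markers was 177 to 271 CPM in WT and 143 to 229 CPM in AHRKO.

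Eno4, a more distant enolase gene with a role in sperm, was near the limit of detection. It had 11 to 23 counts per WT library and 3 to 17 counts per AHRKO library, at means of 0.800 ± 0.269 and 0.456 ± 0.237 CPM. Its log2 fold change of -0.78 ± 0.38 (SE) did not pass (adjusted p = 0.140, edgeR's quasi-likelihood test).

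Per kilobase of the longest coding transcript, Eno1 was by far the highest enolase gene in both groups, at 790 ± 130 CPM per kilobase in WT and 976 ± 279 in AHRKO. In WT the order was Eno1, Eno1b at 61.0 ± 10.4, Eno3 at 7.61 ± 1.56 and Eno2 at 3.99 ± 1.00. In AHRKO Eno3 followed Eno1 at 16.6 ± 4.95, then Eno2 at 5.47 ± 2.25 and Eno1b at 0.780 ± 0.254 CPM per kilobase. Neighbours in each order lay more than an SD of either apart. Of the per-length level of the 4 genes together, Eno1 held 91.6% ± 0.668 in WT and 97.5% ± 0.882 in AHRKO, and Eno1b held 7.09% ± 0.571 and 0.0777% ± 0.0140. Eno3 held 0.886% ± 0.127 in WT and 1.75% ± 0.612 in AHRKO. By mean per-length level Eno1 ranked 40 among 15369 tested genes with a length in WT and 41 in AHRKO. Eno1b ranked 1038 in WT and 13446 in AHRKO. These per-length values divide by the whole transcript, while the part of Eno1 and Eno1b behind their counts is not known. Their order, shares and ranks beside other genes carry that limit.

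Most glycolytic genes around enolase did not pass the test. Of 29 tested genes of a glycolysis list of 33 without enolase, 1 rose and 1 fell, less than the 29.5% called among all tested genes, and 27 did not pass. Their median log2 fold change was 0.00, beside 0.023 over all tested genes. Pgam1, the mutase that supplies the substrate of enolase, was at 459 ± 89.7 CPM in WT and 466 ± 109 CPM in AHRKO. Its log2 fold change was 0.02 ± 0.17 (SE), with a 95% interval of -0.34 to 0.39. Pkm, the pyruvate kinase that uses the product of enolase, was at 2869 ± 468 and 2693 ± 705 CPM. Its log2 fold change was -0.09 ± 0.18 (SE), with a 95% interval of -0.49 to 0.30.

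The glycolytic genes that passed were Hk3 and Bpgm. Hk3, a hexokinase typical of myeloid cells, rose from 11.1 ± 4.21 to 54.6 ± 48.6 CPM, a log2 fold change of 2.29 ± 0.48 (SE) with an adjusted p of 0.00461 (edgeR's quasi-likelihood test). It was highest in AHRKO replicate 1, at 151 CPM, the library with the highest sum of leukocyte markers, and the part of those cells in its rise was not tested. Bpgm, which makes 2,3-bisphosphoglycerate, fell from 69.4 ± 14.4 to 47.2 ± 11.8 CPM, at -0.56 ± 0.18 (SE) with an adjusted p of 0.0317 by the same test. The call of Bpgm was lost without WT replicate 3, 4 or 6 and without AHRKO replicate 4, 5 or 6. Other genes with the smallest p had log2 fold changes of 0.58 for the phosphofructokinase gene Pfkp, -1.69 for Hkdc1, a hexokinase-like gene, 0.87 for the muscle mutase gene Pgam2, 0.38 for Pfkfb4 and 0.65 for the aldolase gene Aldoc. Ldha, which encodes a lactate dehydrogenase subunit, was at 0.32. Of 15 hypoxia targets, 0 were called in either direction by edgeR's quasi-likelihood test, DESeq2 or limma-voom, and 0 had an unadjusted p under 0.05, with log2 fold changes from -0.82 for Adm to 0.45 for Egln3.

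**Figure D5:**
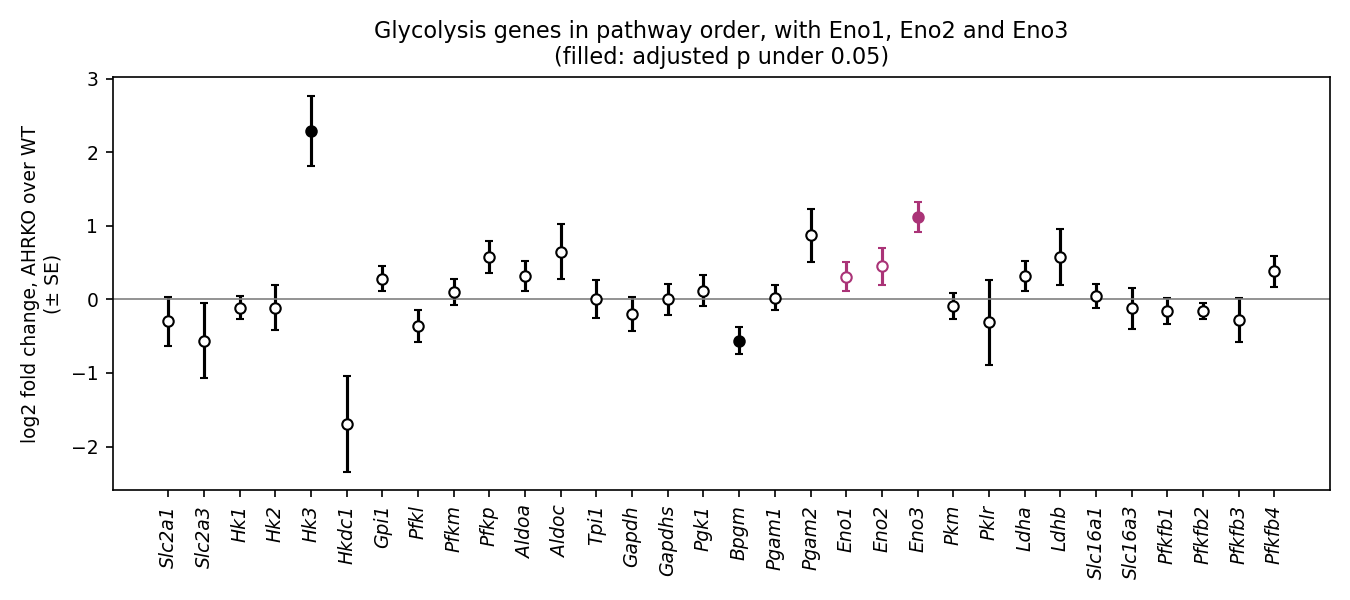
Log2 fold change of AHRKO over WT (± SE) for 29 tested glycolysis genes and for Eno1, Eno2 and Eno3 (purple), with enzymes and transporters in pathway order and the 4 Pfkfb regulators last. Filled points passed an adjusted p of 0.05 (edgeR's quasi-likelihood test): Hk3 at 2.29, Bpgm at -0.56 and Eno3 at 1.12.

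The genes with the profile most like that of Eno1b over the 12 libraries were Glp1r, an incretin receptor gene, Klhl1, the RNA gene 8430419K02Rik, Fgfr4, a growth factor receptor gene, and Lrp2, an endocytic receptor gene. Likeness was the root mean square difference of log2 CPM after each gene was centred on its own mean, and it was 0.58, 0.71, 0.88, 0.91 and 0.95 for these genes. Each was lower in all 6 AHRKO libraries than in any WT library. Because they were picked for likeness to Eno1b, this gap follows from the choice and is a description only. Glp1r stood at 46.2 ± 17.6 CPM in WT and 0.431 ± 0.200 CPM in AHRKO. For Eno1 the nearest profiles were those of Hspa9, a mitochondrial chaperone gene, at 0.10, and of Clybl and Mthfd1l, genes of mitochondrial enzymes, at 0.13 each. Hspa9 stood at 517 ± 74.5 and 606 ± 176 CPM. For Eno3 they were Mrpl43, a mitochondrial ribosome gene, at 0.23, and B9d2 and Fbxl15 at 0.24 each. For Eno2 they were Swap70 at 0.20 and N4bp3 and Lbh at 0.21 each.

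No tested gene near Eno1b had a difference like its own. The nearest genes with counts were Gm5839, a pseudogene 578292 bases away, Sema6a, a semaphorin gene 676465 bases away, Commd10 and Dtwd2. Sema6a rose from 15.8 ± 5.11 to 48.7 ± 12.7 CPM, a log2 fold change of 1.62 ± 0.23 (SE) with an adjusted p of 0.000613 (edgeR's quasi-likelihood test). Commd10 was at 0.27 (adjusted p = 0.0424, same edgeR test), and Dtwd2 was at 0.12 and did not pass. Within 2 Mb of Eno1b, 16 other genes were tested, of which 4 were higher and 1 was lower, with log2 fold changes from -0.62 to 1.62, and the share called was near the 29.5% of all tested genes. Over the 415 other tested genes of chromosome 18 the median was -0.05, with 39 higher and 47 lower, beside 15.9% higher and 13.6% lower among all tested genes. In the annotation Eno1b lies within AC150274.2, a longer RNA gene on the same strand, which has no row among the deposited counts. Near Eno1 on chromosome 4, Car6 and Rere, the nearest genes with a test, were at 0.92 and 0.08 on the log2 scale and did not pass, with adjusted p of 0.178 and 0.709 (edgeR's quasi-likelihood test).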

How the data were processed

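RNA-seq of 6 WT and 6 AHRKO CR705 tumour samples was used. The authors deposited raw counts per Ensembl gene. The submitters' processing notes name the build mm10 and the tools HISAT2 (an aligner), SAMtools, HTSeq (a read counter) and DESeq2. The sources used here do not give tool versions, annotation, strand setting or the handling of multiply aligned reads. The growth and treatment texts of the labels describe cultured cells given test compounds, whereas the RNA protocol names tumours, and no sample label names a compound, so all samples were taken as untreated tumours.

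Symbols, coordinates and transcripts came from GENCODE release M21 (mm10), which matched 42462 of 43432 identifiers, and promoters from RefSeq (GRCm38.p6). All 3 ordinary enolase genes of the list, Eno1, Eno2 and Eno3, had a RefSeq promoter entry. Genes were kept by edgeR's filterByExpr, scaled by TMM and compared by edgeR's quasi-likelihood test (edgeR 4.0.16, limma 3.58.1, DESeq2 1.42.0, R 4.3.3), two-sided, with Benjamini-Hochberg adjustment over 15449 genes and a threshold of 0.05. SE is the log2 fold change over the root of F. CPM uses TMM-scaled totals of the tested genes, and log2 CPM a prior count of 2. Lengths are those of the longest coding transcript. Library pairs within a group had a chi-squared per degree of freedom of at least 12.6, so none was a repeat of the same library. This does not show whether libraries came from separate tumours. The test was tried on simulated data.

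Members, lists and tests were chosen with earlier results of these data known. Named genes were the enolase genes, the nearest profiles (5 for Eno1b, 3 for each other member, predicted genes and pseudogenes passed over), the nearest 2 genes with counts on each side, Pgam1, Pkm and up to 10 further glycolysis genes by p, and at most 4 genes of each marker list. Lists covered glycolysis, hypoxia targets, skeletal muscle, neuronal, leukocyte, ductal, fibroblast, acinar, endothelial and erythroid genes. Of the fibroblast (10 tested), endothelial (7), erythroid (5), ductal (12) and acinar (1) lists 0 genes were called by edgeR, with 3 ductal genes and 0 others at an unadjusted p under 0.05. DESeq2 called 2 of 12 ductal genes lower, beside 2505 of all 15449 tested genes. With limma-voom 2 ductal and 3 of 10 fibroblast genes were called lower, beside 2948 of 15449. Without AHRKO replicate 1, edgeR called 6 of 10 fibroblast genes and 1 ductal gene lower, beside 2778 of 15606 tested genes. That fit also called 1 ductal gene higher, beside 2980 of 15606. Alternatives were DESeq2, limma-voom, RLE and upper-quartile scaling, other filters, a replicate block, summed copies and leaving out each library.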

Additional observations from a re-analysis of the deposited data

How the results depend on the processing

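Eno3 stayed higher and called under all 19 alternatives, from 1.00 to 1.21 on the log2 scale. Eno2 stayed uncalled, from 0.27 to 0.60, and Eno1 stayed positive, from 0.20 to 0.42, and uncalled except with limma-voom and sample quality weights (0.42). Eno1b stayed between -6.40 and -6.15. Its share of the pair was 6.38% with pooled counts and 6.26% to 6.57% without 1 library in WT, and 0.0705% and 0.0670% to 0.0730% in AHRKO. Leaving out 1 library gave 1822 to 2980 genes higher and 1632 to 2778 lower in AHRKO, 0.22 to 0.42 for Eno1, 0.27 to 0.60 for Eno2, 1.00 to 1.21 for Eno3 and -6.40 to -6.15 for Eno1b. Glycolysis genes called higher were 2 with DESeq2, 4 with limma-voom, 2 with the replicate block and 1 to 2 without 1 library. Those called lower were 2 with DESeq2 and 0 to 1 without 1 library. The added genes were Pfkp (DESeq2, limma-voom, the block, and without WT replicate 2 or 3), Aldoc and Ldha (limma-voom) and Hkdc1 (DESeq2, and without AHRKO replicate 5). With the replicate block 1114 genes were higher and 1240 lower, against 2451 and 2106 without it, and Eno3 was at 1.09, with an adjusted p of 0.0200 by edgeR's quasi-likelihood test. Of 14 tested leukocyte markers, 5 were called higher with the block, against 13 without it. The labels do not say what a shared replicate number means. Correlations of the deviations from the group means ran from -0.47 to 0.03 for libraries with the same number. They were not compared with those of other pairs, so they cannot decide whether such libraries belong together. The cause of the changes between settings was not tested. The 11 to 28 counts of Eno1b in AHRKO limit the precision of its level and share there.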

Other observations

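The libraries with more Eno1 tended to have more of the hypoxia targets, though the relation did not pass after adjustment. Over the 6 WT libraries, the log2 CPM of Eno1 and the mean log2 CPM of 15 hypoxia targets had a Pearson r of 0.94 and a Spearman rho of 0.94, with exact permutation p of 0.0139 and 0.0167. Over the 6 AHRKO libraries r was 0.85 and rho 0.77, with exact permutation p of 0.05 and 0.103. Without the 2 libraries farthest from the median hypoxia level, r was 0.96 in WT and 0.97 in AHRKO, over 4 libraries each. After Benjamini-Hochberg adjustment over 12 relations (Eno1, Eno2 and Eno3 against the hypoxia and leukocyte lists in each group), the exact permutation p of Pearson's r was 0.167 in WT and 0.200 in AHRKO, so neither passed. This set of relations was chosen after the data were seen.

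For Eno2 the r with hypoxia targets was 0.74 in WT and 0.24 in AHRKO, and for Eno3 it was 0.39 and 0.20. Without the 2 libraries farthest from the median hypoxia level these were 0.92 and -0.98 for Eno2 and 0.76 and 0.23 for Eno3, so the value of Eno2 in AHRKO changed sign. The lowest adjusted exact permutation p among these was 0.200, that of Eno2 in WT. Eno1 and the leukocyte list had an r of 0.39 in WT and -0.69 in AHRKO. Their exact permutation p were 0.436 and 0.194, and rho was 0.43 and -0.31. Without the 2 libraries farthest from the median leukocyte level, r was -1.0 in WT and 0.17 in AHRKO, so the sign turned in both groups and each value rests on those libraries. None of the 12 relations passed after adjustment.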
